A study of Mus musculus with 12 samples.

Results

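The genes described here encode the proteasome. They were taken from a table of 23359 mouse genes as every row whose symbol starts with Psma, Psmb, Psmc, Psmd, Psme, Psmf or Psmg and goes on with a digit. That rule took 49 genes, found at loci on 16 chromosomes. Of these, 31 encode standard subunits of the particle and 5 belong to the immunoproteasome (Psmb8, Psmb9, Psmb10, Psme1 and Psme2), which is treated apart. The other 13 encode further activators (Psme3, Psme4), assembly chaperones (Psmd5, Psmd9, Psmd10 and Psmg1 to Psmg4), the inhibitor Psmf1, the core subunits Psma8 of testis and Psmb11 of thymus, and Psmc3ip. Psmc3ip is no proteasome subunit but a factor of meiotic recombination whose symbol meets the rule.

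The study sequenced messenger RNA of skin from C3H/HeJ mice in 4 groups of 3 libraries. Treated skin at 20 weeks carries the label CD36highCD90+, and the design text speaks of transplanted fibroblasts of that kind. The others are fibrotic skin, taken at 20 weeks or at 6 weeks, and normal skin, for which no time is given. The sources used here do not give how fibrosis was brought about or whether replicates are separate animals, so p-values measure the spread between these libraries, which may be technical.

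The proteasome is the particle that breaks down most short-lived and damaged proteins of the cell. Its 20S core is a barrel of alpha and beta rings, and 3 of the beta subunits (Psmb5, Psmb6 and Psmb7) hold the protease sites. The 19S cap recognises ubiquitin chains and uses a ring of ATPases to thread substrates into the core. Interferon gamma induces 3 other catalytic subunits, Psmb8, Psmb9 and Psmb10, which take the places of Psmb5, Psmb6 and Psmb7 in new cores, and the activator subunits Psme1 and Psme2. Such immunoproteasomes are typical of immune cells and shape the peptides shown on major histocompatibility complex class I.

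Values are FPKM, a fragment count scaled to transcript length and library size, as the authors deposited them. No depth comes with them. Fold changes are on the log2(FPKM + 1) scale, with SE, and come from 1 limma fit of all 12 libraries. A gene is called higher or lower at an adjusted p under 0.05 over 13761 genes, those that reached 1 FPKM in 3 or more libraries. Of the 49 members 47 passed that filter, and Psma8 and Psmb11 did not. Psma8 ranged from 0.0355 to 0.249 FPKM over the libraries and Psmb11 from 0 to 0.0416 FPKM.

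Basal keratinocyte genes, which mark skin, summed to between 3927 and 9079 FPKM in every library. Treated libraries spread more than the others, with a median SD per gene of 0.239 on the log2 scale, against 0.142 to 0.148 in the other groups. Treated replicate 1 stood apart among the proteasome genes: it was the highest treated library for 31 of the 31 standard subunits and for 5 of the 5 immunoproteasome genes, and treated replicate 3 was the lowest for 29 and 4 of them. Results that rest on treated replicate 1 are therefore given with and without it. Libraries were also rescaled to equal totals after removal of muscle, hair shaft, cornified and wound keratinocyte lists and short RNAs. The median log2 fold change over all genes was then 0.21 in treated over 20-week fibrotic skin (0.00 before rescaling), -0.29 in 20-week fibrotic over normal skin (-0.04 before) and -0.35 in 6-week fibrotic over normal skin (-0.05 before). Changes are given beside that median.

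Fibrotic skin at 6 weeks held more transcript of nearly the whole standard proteasome than normal skin. Of the 31 standard subunits, 21 were called higher and 0 lower, beside 17.6% of all tested genes called higher and 21.7% called lower. Their median log2 fold change was 0.51, with 31 of 31 above 0, where the median of all genes was -0.05. No library overlap was left for 28 of the 31, which lay above normal skin in all 3 libraries, as did 26.6% of all tested genes. After the rescaling the median of the standard subunits was 0.16 with 25 of 31 above 0 and 7 called, where 9.41% of all tested genes were called higher and 43.1% lower, and it stood 0.52 above the median of all genes. At 20 weeks 17 of the 31 were called higher than in normal skin and 0 lower, beside 15.3% and 18.2% of all tested genes, with a median of 0.41. Without overlap 22 of the 31 lay above normal skin, as did 25.1% of all tested genes, and after the rescaling the median was 0.12 with 3 called (Psmb5, Psmc5 and Psmd2), where 8.49% of all tested genes were called higher and 36.3% lower. In treated skin 8 of the 31 were called higher than in normal skin and 0 lower, beside 7.57% and 13.2%, with a median of 0.13. Without treated replicate 1 that median was -0.02 with 5 called higher, beside 8.55% of all tested genes. In bulk skin, more cells of a type and more RNA per cell cannot be told apart.

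Summed over the 31 standard subunits, the level was 4235, 3358 and 2937 FPKM in treated skin, 4441, 3805 and 3750 FPKM in the fibrotic libraries of 20 weeks, 4058, 4459 and 4343 FPKM in those of 6 weeks, and 2790, 3026 and 3322 FPKM in normal skin. The fibrotic libraries of both times lie above every normal one, while the treated libraries reach from the fibrotic range into the normal one. By mean level the order was led by fibrotic skin at 6 weeks for 22 of the 31 and closed by normal skin for 25.

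**Figure D1:**
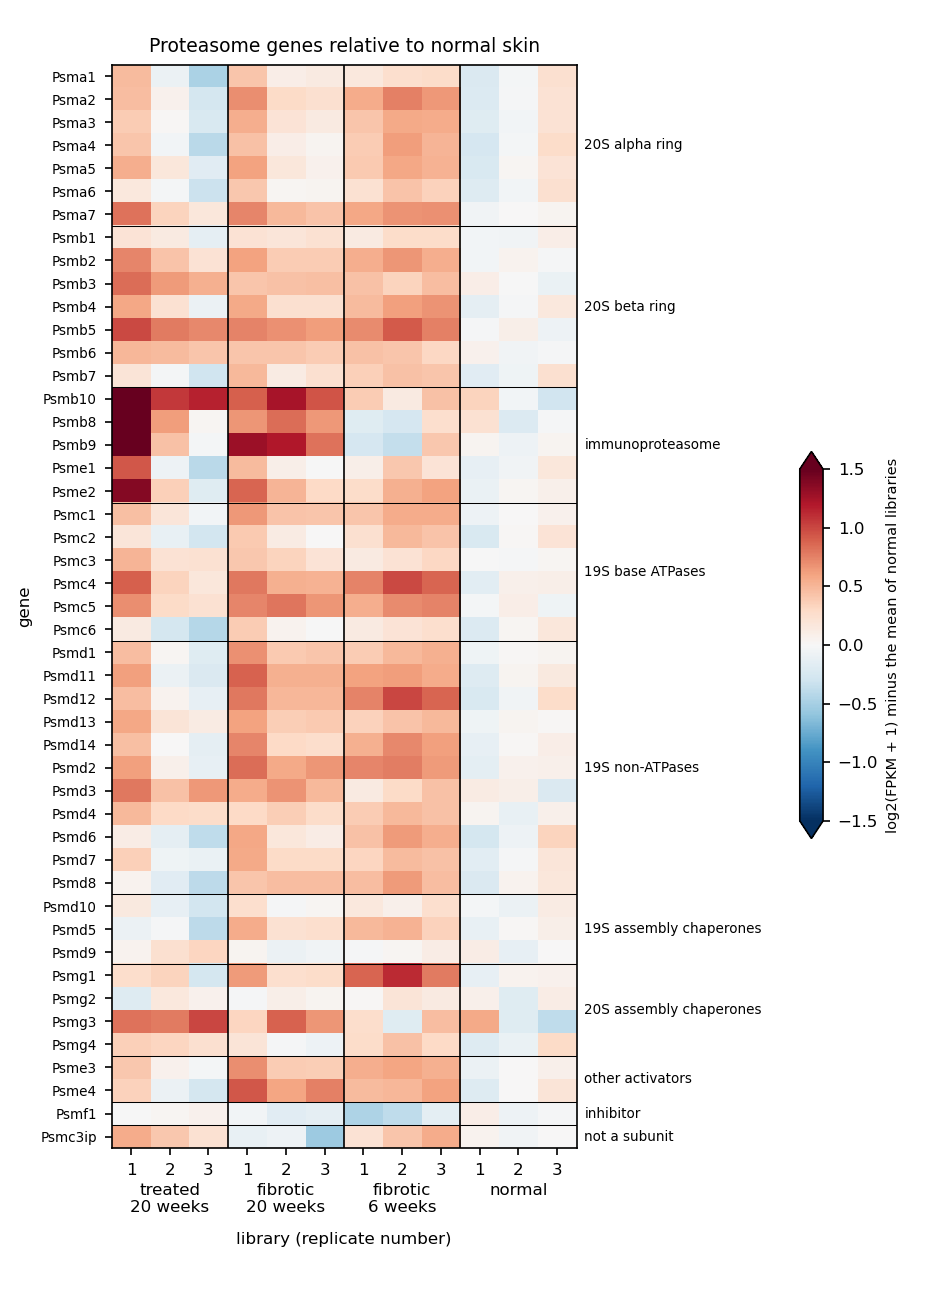
Heat map of log2(FPKM + 1) minus the mean of the normal libraries for the 47 tested members, grouped by role in rows, with the 3 libraries of each group in columns (colours end at 1.5 in both directions). Of the 31 standard subunits, 22 lie above all normal libraries at 20 weeks of fibrosis and 28 at 6 weeks, the immunosubunits Psmb8 and Psmb9 lie above the normal mean in all 3 fibrotic libraries of 20 weeks and in 1 of 6 weeks, and treated replicate 1 is the highest treated library throughout these roles.

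In the catalytic beta ring, 5 of 7 subunits were called higher at 6 weeks and 4 at 20 weeks, beside 17.6% and 15.3% of all tested genes. All 7 lay above normal skin in every library at 6 weeks, as did 26.6% of all tested genes. Psmb5, the chymotrypsin-like protease, stood at 122, 105 and 101 FPKM in treated skin, at 102, 98.4 and 94.2 FPKM at 20 weeks of fibrosis, at 99.9, 116 and 103 FPKM at 6 weeks and at 60.1, 64.6 and 57.7 FPKM in normal skin. Every library of the other 3 groups lay above the normal ones. The log2 fold change over normal skin was 0.84 ± 0.10 in treated skin, 0.68 ± 0.10 at 20 weeks and 0.79 ± 0.10 at 6 weeks (limma, adjusted p = 0.0017, 0.00129 and 0.000426), and the call held with each library left out. Psmb6, the caspase-like protease, had 121, 119 and 115 FPKM in treated skin, 115, 115 and 112 FPKM at 20 weeks, 116, 115 and 106 FPKM at 6 weeks and 89.8, 82.6 and 84.6 FPKM in normal skin. Here too no library of the other groups reached down to normal skin, and the differences were smaller, at 0.46 ± 0.07, 0.41 ± 0.07 and 0.39 ± 0.07 (limma, adjusted p = 0.00481, 0.0035 and 0.00341). After the rescaling Psmb6 was no longer called at 20 weeks (0.12, adjusted p = 0.271) or at 6 weeks (0.04, adjusted p = 0.681) and still was in treated skin (0.43, adjusted p = 0.0105), while Psmb5 stayed called in all 3 comparisons.

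Psmb7, the trypsin-like protease, had 205, 176 and 145 FPKM in treated skin, 251, 196 and 212 FPKM at 20 weeks, 230, 243 and 240 FPKM at 6 weeks and 159, 171 and 212 FPKM in normal skin. Among the comparisons made only 6 weeks against normal skin was without overlap, and none was called (log2 fold change over normal skin 0.28 ± 0.15 at 20 weeks and 0.40 ± 0.15 at 6 weeks, limma, adjusted p = 0.175 and 0.0592). Among the structural beta subunits, Psmb2 and Psmb3 were called higher in all 3 comparisons with normal skin. Psmb3 had 212, 185 and 171 FPKM in treated skin, 158, 161 and 162 FPKM at 20 weeks, 161, 149 and 163 FPKM at 6 weeks and 127, 118 and 110 FPKM in normal skin. After the rescaling Psmb2 was still called at 6 weeks and not at 20 weeks. Psmb3 was then not called at 20 weeks (0.14, limma, adjusted p = 0.282) and not at 6 weeks. Its treated libraries all lay above the fibrotic ones. Before the rescaling that difference of 0.23 ± 0.10 over 20-week fibrotic skin was not called (limma, adjusted p = 0.129), and after it Psmb3 was called higher.

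In the alpha ring, whose N-terminal tails gate the entry to the core, 3 of 7 subunits were called higher at 6 weeks (Psma2, Psma3 and Psma7), beside 17.6% of all tested genes. At 20 weeks 1 was (Psma7), a share close to the 15.3% of all tested genes called higher. Of these calls only that of Psma7 at 6 weeks stayed after the rescaling. Psma7 had 250, 179 and 160 FPKM in treated skin, 237, 200 and 192 FPKM at 20 weeks, 212, 227 and 229 FPKM at 6 weeks and 137, 143 and 146 FPKM in normal skin. Both fibrotic groups lie above normal skin without overlap, and the log2 fold change was 0.56 ± 0.15 at 20 weeks and 0.65 ± 0.15 at 6 weeks (limma, adjusted p = 0.0202 and 0.00885). For Psma1 the 4 groups overlapped in every comparison, with values from 92.1 to 179 FPKM.

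Among the 6 ATPases of the 19S base, 3 were called higher at 6 weeks and 4 at 20 weeks. Of all tested genes 17.6% and 15.3% were. Psmc1, Psmc4 and Psmc5 were called at both times. After the rescaling Psmc5 stayed called at both times, Psmc4 only at 6 weeks, and Psmc1 and Psmc3 at neither. Psmc1, Psmc3 and Psmc4 also lost the 20-week call without fibrotic replicate 1 and without normal replicate 1. Psmc4 had 113, 76.3 and 67.6 FPKM in treated skin, 105, 87.8 and 86.7 FPKM at 20 weeks, 101, 120 and 111 FPKM at 6 weeks and 53.7, 63.5 and 63.7 FPKM in normal skin. All libraries of the 3 groups lay above normal skin, by 0.87 ± 0.18 on the log2 scale at 6 weeks (limma, adjusted p = 0.00454). Psmc5 rose by 0.73 ± 0.13 at 20 weeks and by 0.67 ± 0.13 at 6 weeks, to means of 146 ± 6.72 FPKM and 139 ± 10.4 FPKM against 87.3 ± 5.44 FPKM in normal skin (SD, n = 3 each; limma, adjusted p = 0.00283 and 0.00329). Psmc6 was not called in any comparison and overlapped with normal skin at both times.

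The non-ATPase subunits of the 19S cap showed the most calls of any role, with 10 of 11 higher at 6 weeks and 8 of 11 at 20 weeks. The shares of all tested genes called higher were 17.6% and 15.3%. After the rescaling only Psmd2 and Psmd12 of this role stayed called at 6 weeks, and only Psmd2 at 20 weeks. Of all tested genes 9.41% and 8.49% were then called higher. Psmd12, a scaffold of the lid, had 61.2, 45.7 and 40.4 FPKM in treated skin, 77, 62.6 and 62.7 FPKM at 20 weeks, 74.5, 89.8 and 81.8 FPKM at 6 weeks and 37.7, 42.7 and 53.6 FPKM in normal skin. Its fibrotic libraries lie above every normal one, by 0.87 ± 0.17 at 6 weeks and 0.59 ± 0.17 at 20 weeks (limma, adjusted p = 0.00393 and 0.0253). Psmd2, with Psmd1 a large scaffold of the base, rose by 0.69 ± 0.17 at 20 weeks and 0.71 ± 0.17 at 6 weeks (limma, adjusted p = 0.0125 and 0.00912). The ubiquitin receptor Psmd4 had 103, 90.4 and 88.5 FPKM in treated skin, 90.1, 95.2 and 88.6 FPKM at 20 weeks, 95.8, 103 and 99.3 FPKM at 6 weeks and 75.4, 67.6 and 76.9 FPKM in normal skin, again without overlap with normal skin, but after the rescaling its fold change at 6 weeks was 0.09 (limma, adjusted p = 0.335). Psmd14, the deubiquitinase of the lid, was called at 6 weeks (0.62 ± 0.17, limma, adjusted p = 0.0151) and not at 20 weeks (0.43 ± 0.17, adjusted p = 0.068). Psmd3 was the member of this role not called at 6 weeks.

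Of the alternative activators, both Psme3, the nuclear regulator PA28 gamma, and Psme4, which encodes PA200, were called higher at both times. The shares of all tested genes called higher were 17.6% at 6 weeks and 15.3% at 20 weeks. After the rescaling neither Psme3 nor Psme4 was called at 6 weeks, and only Psme4 was at 20 weeks. Psme4 had 32.2, 23.6 and 20.8 FPKM in treated skin, 48.9, 38.3 and 43 FPKM at 20 weeks, 35.2, 35.9 and 38.7 FPKM at 6 weeks and 21.8, 25.2 and 28.9 FPKM in normal skin. The fibrotic libraries do not overlap with normal ones, with a log2 fold change of 0.76 ± 0.16 at 20 weeks (limma, adjusted p = 0.00682), and treated libraries lie in or near the normal range. The 20S assembly chaperone Psmg1 had 22.1, 23.2 and 15 FPKM in treated skin, 28.9, 21.8 and 22.2 FPKM at 20 weeks, 34, 40.8 and 32 FPKM at 6 weeks and 16.6, 18.9 and 19.1 FPKM in normal skin. At 6 weeks this was the largest fold change among the members (0.92 ± 0.17, limma, adjusted p = 0.00287), and it remained above normal skin at 20 weeks without a call (0.39 ± 0.17, adjusted p = 0.103). Psmg2 overlapped with normal skin at both times, Psmg3 and Psmg4 were not called there, and of the ATPase chaperones Psmd5 was called at 6 weeks (0.45 ± 0.12, limma, adjusted p = 0.0179). After the rescaling Psmd5 was not called.

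Psmf1, the inhibitor PI31, was the only member called lower than in normal skin in the fit of all libraries. It had 7.77, 8.02 and 8.24 FPKM in treated skin, 7.61, 6.86 and 7.03 FPKM at 20 weeks, 5.39, 5.8 and 6.99 FPKM at 6 weeks and 8.45, 7.37 and 7.71 FPKM in normal skin. The 6-week libraries lie below the normal ones, with a log2 fold change of -0.33 ± 0.10 (limma, adjusted p = 0.0237), and the call was lost with 3 of 7 libraries left out in turn (the 6 compared and treated replicate 1). A fit with the replicate number as a block was also made, though the labels state no pairing. It gave 22 members higher and 1 lower at 6 weeks in place of 25 and 1, and left Psma3, Psmd6 and Psmd7 uncalled. Of all tested genes it called 16.1% higher and 20.3% lower. The 26 calls at 6 weeks became 13 without fibrotic replicate 2, 17 without fibrotic replicate 3 and 13 without normal replicate 1. The share of all tested genes called higher also fell, from 17.6% to 11%, 14.9% and 11.4%. At 20 weeks 19 members were higher and 0 lower, and the 19 became 7 without fibrotic replicate 1 and 9 without normal replicate 1. There the share of all tested genes called higher fell from 15.3% to 10.1% and 10.2%.

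Levels of other tissue markers stood beside these groups as follows. Wound keratinocyte genes summed to 1417 to 15523 FPKM in treated skin, 14151 to 22863 FPKM at 20 weeks, 23400 to 38463 FPKM at 6 weeks and 454 to 642 FPKM in normal skin. At each fibrotic time 9 of 10 were called higher, beside 15.3% of all tested genes at 20 weeks and 17.6% at 6 weeks. Basal keratinocyte genes summed to 5161 to 8326 FPKM in treated skin, 5996 to 8439 FPKM at 20 weeks, 7741 to 9079 FPKM at 6 weeks and 3927 to 4266 FPKM in normal skin. Gene by gene they went in both directions. Of 6, 1 was called higher and 2 lower at 20 weeks, beside 15.3% and 18.2% of all tested genes. The 1 higher was close to that share. At 6 weeks 2 were called higher and 3 lower, beside 17.6% and 21.7%. The median log2 fold changes were -0.28 at 20 weeks and -0.59 at 6 weeks. Macrophage genes summed to 241 to 286 FPKM in treated skin, 372 to 409 FPKM at 20 weeks, 330 to 859 FPKM at 6 weeks and 113 to 231 FPKM in normal skin. Their part in the higher proteasome levels was not tested.

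Among the immunoproteasome genes, Psmb8, Psmb9 and Psmb10 were higher in every 20-week fibrotic library than in any 6-week or normal one. At 6 weeks 0 of the 5 were called, beside 17.6% of all tested genes called higher, with a median log2 fold change of 0.23. Only Psme2 lay above normal skin in all libraries, as did 26.6% of all tested genes. Psme2 was the 1 of the 5 called at 6 weeks in the fit of the 6 libraries alone (0.47, limma, adjusted p = 0.0184). That share is close to the 20.7% of all tested genes called higher in that fit. At 20 weeks the median was 0.71 and 4 of the 5 (Psmb8, Psmb9, Psmb10 and Psme2) lay above normal skin without overlap, as did 25.1% of all tested genes. Yet 0 of the 5 were called in the fit of all libraries, beside 15.3% of all tested genes called higher. These 4 genes were called once treated replicate 1 was left out, beside 19.5% of all tested genes called higher, and also when the 6 libraries of the comparison were fitted alone, beside 18.1%.

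Psmb9, the immunosubunit that replaces Psmb6, had 297, 84.7 and 60.8 FPKM in treated skin, 153, 144 and 110 FPKM at 20 weeks of fibrosis, 51.9, 48.2 and 82.7 FPKM at 6 weeks and 64, 58.9 and 63.8 FPKM in normal skin. The 20-week fibrotic libraries lie above all 6-week and normal ones, while the treated libraries reach from the normal level to above the highest fibrotic one. Over normal skin the log2 fold change at 20 weeks was 1.10 ± 0.47 (limma, adjusted p = 0.0954). Without treated replicate 1 it was 1.10 ± 0.21 (adjusted p = 0.00298). Psmb8, which replaces Psmb5, had 270, 101 and 66.9 FPKM in treated skin, 104, 117 and 103 FPKM at 20 weeks, 57.5, 54.7 and 77.8 FPKM at 6 weeks and 76.7, 56.4 and 64.3 FPKM in normal skin. It too separated the 20-week fibrotic libraries from both earlier and normal skin, with 0.71 ± 0.40 over normal skin (limma, adjusted p = 0.189) and 0.71 ± 0.18 without treated replicate 1 (adjusted p = 0.0127).

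Psmb10, which replaces Psmb7, had 62.3, 19.4 and 20.8 FPKM in treated skin, 17.2, 22 and 17.8 FPKM at 20 weeks, 11.7, 9.78 and 12.3 FPKM at 6 weeks and 11.3, 8.52 and 6.99 FPKM in normal skin. It was the lowest of the 5 genes in every group, and the only one called in treated skin over normal skin, with a log2 fold change of 1.64 ± 0.37 (limma, adjusted p = 0.0149). Without treated replicate 1 this was 1.11 ± 0.18 (adjusted p = 0.0061). It was no longer called without normal replicate 3 or in the fit of the 6 libraries alone (adjusted p = 0.104). The activator genes Psme1 and Psme2 were not called in any comparison with all libraries. Psme1 had 206, 102 and 81 FPKM in treated skin, 150, 114 and 107 FPKM at 20 weeks, 114, 143 and 124 FPKM at 6 weeks and 99, 104 and 121 FPKM in normal skin, so its groups overlapped throughout. Psme2 had 396, 194 and 133 FPKM in treated skin, 279, 216 and 186 FPKM at 20 weeks, 184, 219 and 231 FPKM at 6 weeks and 141, 154 and 160 FPKM in normal skin, where both fibrotic groups lay above normal skin.

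**Figure D2:**
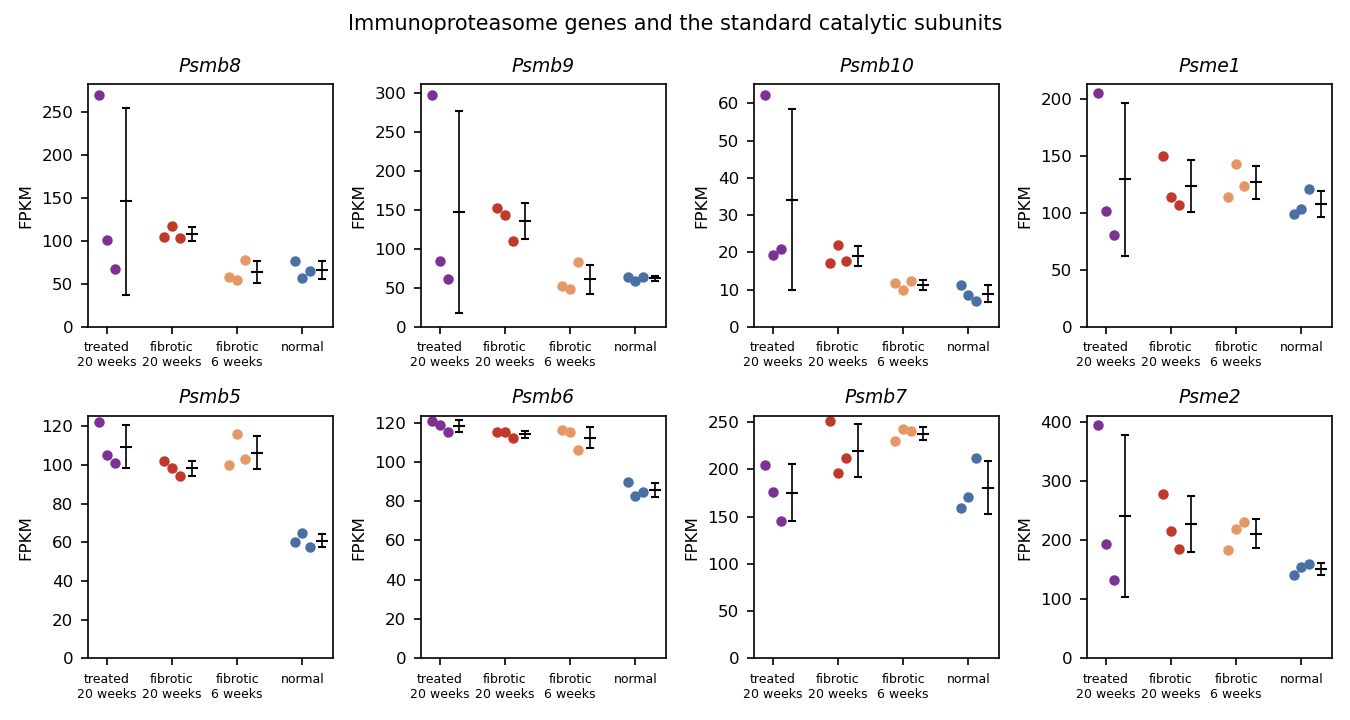
FPKM of the 5 immunoproteasome genes and of Psmb5, Psmb6 and Psmb7 in each library (points) with the group mean and SD (bar, n = 3), for treated, fibrotic 20-week, fibrotic 6-week and normal skin. Psmb8 and Psmb9 are above the 6-week and normal libraries in all fibrotic 20-week libraries, and treated replicate 1 is the highest point of each of the 5 genes.

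Between 20 and 6 weeks 0 members were called in the fit of all libraries, beside 0.00727% of all tested genes higher and 0.0291% lower. Psmb8, Psmb9 and Psmb10 were 3 of the 5 immunoproteasome genes and lay above the 6-week libraries in all 20-week libraries, as did 17.9% of all tested genes, while 1 of the 31 standard subunits did. The log2 fold changes were 0.77 ± 0.40, 1.17 ± 0.47 and 0.70 ± 0.37 (limma, adjusted p = 0.313, 0.21 and 0.318). Fitted on the 6 fibrotic libraries alone, these 3 were called (adjusted p = 0.0432, 0.0449 and 0.042), where 2.09% of all tested genes were called higher. Without treated replicate 1 in the pooled spread Psmb9 and Psmb10 were called (adjusted p = 0.0277 and 0.0473) and Psmb8 was not (0.0521). Of all tested genes 3.01% were called higher in that fit.

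The share of each immunosubunit in its catalytic pair, taken from FPKM of both genes in the same library, does not depend on how libraries were scaled. Psmb9 made up 71.1, 41.5 and 34.6% of Psmb9 plus Psmb6 in treated skin, 57.1, 55.5 and 49.6% at 20 weeks, 30.9, 29.5 and 43.7% at 6 weeks and 41.6, 41.6 and 43% in normal skin. The fibrotic 20-week libraries lie above all 6-week and normal ones, while 2 of the 3 treated libraries lie below every 20-week fibrotic one. For Psmb8 in Psmb8 plus Psmb5 the shares were 68.9, 48.9 and 39.7% in treated skin, 50.5, 54.2 and 52.2% at 20 weeks, 36.5, 32.1 and 43% at 6 weeks and 56.1, 46.6 and 52.7% in normal skin. Here the 6-week libraries stand below all others except treated replicate 3. For Psmb10 in Psmb10 plus Psmb7 the shares were 23.3, 9.95 and 12.5% in treated skin, 6.42, 10.1 and 7.71% at 20 weeks, 4.86, 3.87 and 4.87% at 6 weeks and 6.64, 4.73 and 3.19% in normal skin.

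Of 15 exact permutation tests of the log2 ratios (2-sided, 3 pairs in 5 comparisons), 6 had groups without overlap and so the smallest p that 3 against 3 libraries allow, 0.10, and 0 passed the adjustment (lowest adjusted p = 0.25). The log2 ratio of Psmb8 to Psmb5 was -0.76 ± 0.34 at 6 weeks and 0.10 ± 0.28 in normal skin (SD, n = 3, exact p = 0.10), and 0.13 ± 0.11 at 20 weeks. The ratio of Psmb9 to Psmb6 was 0.23 ± 0.23 at 20 weeks against -0.46 ± 0.05 in normal skin and -0.93 ± 0.49 at 6 weeks (exact p = 0.10 for both).

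**Figure D3:**
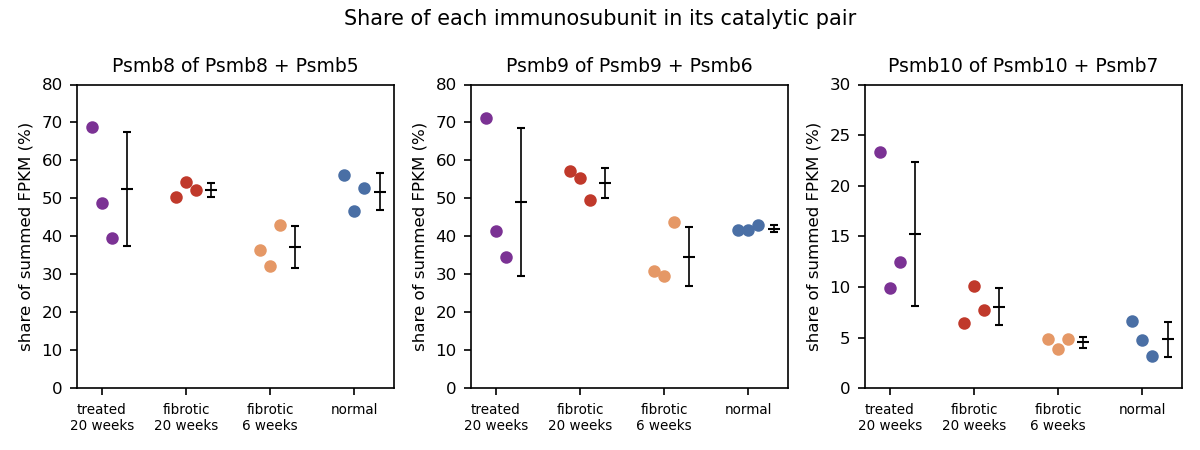
Percent of the summed FPKM of each catalytic pair that came from the immunosubunit, per library (points) with mean and SD (bar, n = 3). In each panel the 6-week fibrotic libraries are below the 20-week fibrotic ones. In the Psmb10 panel treated libraries average 15.3% against 8.07% at 20 weeks, 4.53% at 6 weeks and 4.85% in normal skin. Treated replicate 1 is at 23.3% there and the other treated libraries at 9.95 and 12.5%, so treated and 20-week fibrotic libraries overlap.

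Genes of interferon response and antigen processing were set beside the immunoproteasome. Psmb9 lies next to Tap1, Psmb8 and Tap2 on chromosome 17, where Psmb9 (34181987 to 34187764, minus strand) overlaps the start of Tap1 (34187553 to 34197225, plus strand) in the GRCm38 annotation. The deposited values do not state whether counting used strand, so reads in the shared stretch cannot be assigned with certainty. Of the 14 genes in the list, 3 were called higher at 20 weeks over normal skin, Cxcl9 and Cxcl10 among them, 1 in treated over normal skin (Ifng) and 0 at 6 weeks, beside 15.3%, 7.57% and 17.6% of all tested genes. At 20 weeks 10 of the 14 lay above normal skin without overlap, as did 25.1% of all tested genes. Nlrc5, Tapbp, Ciita and Cd74 overlapped with normal skin there. Without treated replicate 1, 9 of the 14 were called higher at 20 weeks over normal skin, beside 19.5% of all tested genes. At 6 weeks 3 were higher and 1 lower over normal skin, beside 21.4% and 26.2%. In treated over fibrotic skin 10 were lower, beside 20.2%. The fits of the 6 libraries compared gave 9 higher at 20 weeks, beside 18.1%. They gave 3 higher and 1 lower at 6 weeks, beside 20.7% and 24%. The count higher at 6 weeks was close to the share of all tested genes in both fits. In treated over fibrotic skin the 6-library fit gave 0, beside 0.00727% higher and 0.0145% lower. Cxcl9, a chemokine induced by interferon gamma that attracts T cells, had 147, 7.05 and 5 FPKM in treated skin, 63, 25.2 and 14.5 FPKM at 20 weeks, 4.58, 4.96 and 10.4 FPKM at 6 weeks and 1.52, 0.722 and 1.15 FPKM in normal skin. Its 20-week fibrotic libraries lie above all 6-week and normal ones. It rose by 3.82 ± 1.02 at 20 weeks over normal skin (limma, adjusted p = 0.018).

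Ifng itself was at 5.02, 0.355 and 1.71 FPKM in treated skin, 1.83, 1.06 and 1.26 FPKM at 20 weeks, 0.133, 0.168 and 0.188 FPKM at 6 weeks and 0.043, 0.0796 and 0.0531 FPKM in normal skin. Cd8a, which marks cytotoxic T cells, was at 12.2, 0.68 and 0.185 FPKM in treated skin, 7.97, 6.67 and 8.9 FPKM at 20 weeks, 0.05, 0.41 and 0.431 FPKM at 6 weeks and 0.00748, 0.133 and 0.0201 FPKM in normal skin. The 10 T and NK cell markers summed to 138, 35.2 and 27.8 FPKM in treated skin, 65 to 95.6 FPKM at 20 weeks, 15 to 35 FPKM at 6 weeks and 45.3 to 75.5 FPKM in normal skin, and none of them was at 0. They went in different directions. At 20 weeks Cd8a, Cd8b1 and Gzma were called higher than in normal skin, while Cd3e and Cd3g, which mark T cells in general, lay below every normal library without a call (log2 fold change -0.64 and -0.71, limma, adjusted p = 0.206 and 0.134) and Cd3d was at -0.06. At 6 weeks Cd3e, Cd3g and Nkg7 were called lower and Cd4 higher. Treated replicate 1 was the highest treated library for 14 of the 14 interferon genes and 9 of the 10 T and NK markers, the same library that led the immunoproteasome genes. The part of these cells in the immunoproteasome levels was not tested.

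**Figure D4:**
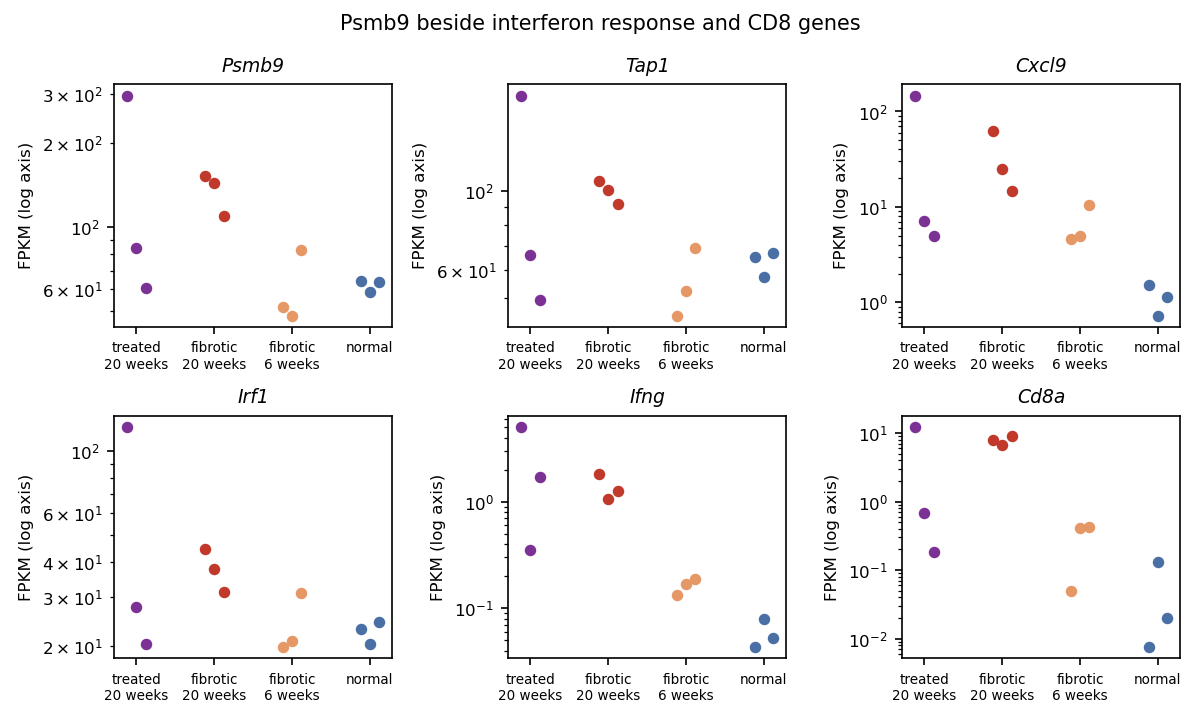
FPKM on a log axis of Psmb9, Tap1, Cxcl9, Irf1, Ifng and Cd8a in each library of treated, fibrotic 20-week, fibrotic 6-week and normal skin. In each panel treated replicate 1 is the highest library, and the 20-week fibrotic libraries are above the normal ones. At 20 weeks over normal skin Cxcl9 and Cd8a were called, and Psmb9, Tap1, Irf1 and Ifng were not. Among listed genes not shown, Nlrc5, Tapbp, Ciita and Cd74 overlapped with normal skin at 20 weeks, and Cd3e and Cd3g lay below it.

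The upstream sequences of 4 genes are shown because they carry the letters searched for in the promoters: Psmb5 as a catalytic subunit called, like Psmb6, in every comparison with normal skin, Psmb9 and Psmb8 as the neighbouring immunosubunits that part 20-week from 6-week fibrotic skin, and Psme1 as the one immunoproteasome gene with an interferon-type match. Capitals mark matches to TGANNNNGC (antioxidant response element core), the interferon response element or CCAAT, searched on both strands, and no match overlaps another here. Windows run from 250 bases before to 50 after the start in the RefSeq annotation of GRCm38.p6, and base 1 is the start site. They are chr14:54617946-54618245 on the minus strand for Psmb5, chr17:34187281-34187580 on the minus strand for Psmb9, chr17:34197945-34198244 on the plus strand for Psmb8 and chr14:55578244-55578543 on the plus strand for Psme1.
Psmb5: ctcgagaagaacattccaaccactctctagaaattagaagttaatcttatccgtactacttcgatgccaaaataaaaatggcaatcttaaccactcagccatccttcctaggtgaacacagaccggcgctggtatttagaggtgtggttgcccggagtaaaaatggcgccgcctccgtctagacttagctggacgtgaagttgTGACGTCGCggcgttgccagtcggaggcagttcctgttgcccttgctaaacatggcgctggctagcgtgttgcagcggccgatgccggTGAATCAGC
Psmb9: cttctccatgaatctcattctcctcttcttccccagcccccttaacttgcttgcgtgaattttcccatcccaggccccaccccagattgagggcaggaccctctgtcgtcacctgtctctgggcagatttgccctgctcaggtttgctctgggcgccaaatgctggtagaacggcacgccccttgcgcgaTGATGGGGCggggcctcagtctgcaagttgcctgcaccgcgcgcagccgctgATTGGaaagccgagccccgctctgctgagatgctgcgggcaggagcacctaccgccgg
Psmb8: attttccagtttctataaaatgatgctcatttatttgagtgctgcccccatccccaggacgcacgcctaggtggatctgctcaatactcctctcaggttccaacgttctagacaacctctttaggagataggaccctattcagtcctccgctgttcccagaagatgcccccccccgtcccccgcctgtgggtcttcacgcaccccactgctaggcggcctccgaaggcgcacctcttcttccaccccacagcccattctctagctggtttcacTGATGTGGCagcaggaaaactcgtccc
Psme1: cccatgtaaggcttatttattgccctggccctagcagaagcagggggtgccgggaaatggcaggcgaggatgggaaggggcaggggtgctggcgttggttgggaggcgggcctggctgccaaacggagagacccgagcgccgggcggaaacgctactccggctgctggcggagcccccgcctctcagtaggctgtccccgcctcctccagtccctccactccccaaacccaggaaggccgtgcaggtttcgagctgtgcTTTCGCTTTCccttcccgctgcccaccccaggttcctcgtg
Psmb5 held TGANNNNGC at -47 and at 42, Psmb9 at -60 with CCAAT on the other strand at -8, and Psmb8 at 24, while Psme1 held the interferon response element on the other strand at 10. Over the 44 windows of 41 members in the RefSeq table, TGANNNNGC matched in 59.1%, against 41.3% of 32851 windows of all genes, and CCAAT in 34.1% against 37.4%. The interferon element matched in 11.4% of member windows and in 3.44% of all windows, and in 1 of the 6 immunoproteasome windows. A match is a run of letters, not a binding site, and a window with none says nothing of the factor.

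In treated against fibrotic skin at 20 weeks, 1 member was called higher and 3 lower of 47, beside 4.45% of all tested genes higher and 10.9% lower. The standard subunits had a median log2 fold change of -0.24 with 1 of 31 called (Psmd8), but after the rescaling their median was 0.02 and the median of all genes 0.21. Of the 47 members 7 were then called higher and 2 lower, close to the 12.3% and 5.61% of all tested genes. Psme4 had the values given above and fell by 0.76 ± 0.16 (limma, adjusted p = 0.0197). Psmd8, a lid subunit, had 159, 136 and 117 FPKM in treated skin and 206, 213 and 212 FPKM in fibrotic skin, without overlap, and fell by 0.62 ± 0.13 (adjusted p = 0.0198). Psmd5 fell by 0.51 ± 0.12 (adjusted p = 0.0267), to 22.3, 23.5 and 17.8 FPKM in treated skin, against 35.3, 28.1 and 28.4 FPKM in fibrotic skin. The one member called higher was Psmc3ip at 5.33, 4.66 and 4.01 FPKM in treated skin, against 2.98, 3.07 and 1.93 FPKM in fibrotic skin (0.64 ± 0.15, adjusted p = 0.023).

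These counts hang on single libraries. Without treated replicate 1, 19 members were called lower and 2 higher, beside 20.2% and 17.7% of all tested genes, and the 19 held 15 standard subunits and Psmb9 (-0.89 ± 0.24, adjusted p = 0.0161). Without treated replicate 2, 1 member was called, and without treated replicate 3, fibrotic replicate 1 or fibrotic replicate 3, 0 were. In that order, 1.44%, 0.371%, 0.501% and 0.0145% of all tested genes were called higher. The shares called lower were 2.43%, 1.79%, 1.98% and 0.00727%. In the fit of the 6 libraries alone 0 of the 47 were called, beside 0.00727% of all tested genes higher and 0.0145% lower. Psmb8, Psmb9, Psme1 and Psme2 spread from below to above the fibrotic range in treated skin, and 0 of the 5 were called with all 3 treated libraries.

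**Figure D5:**
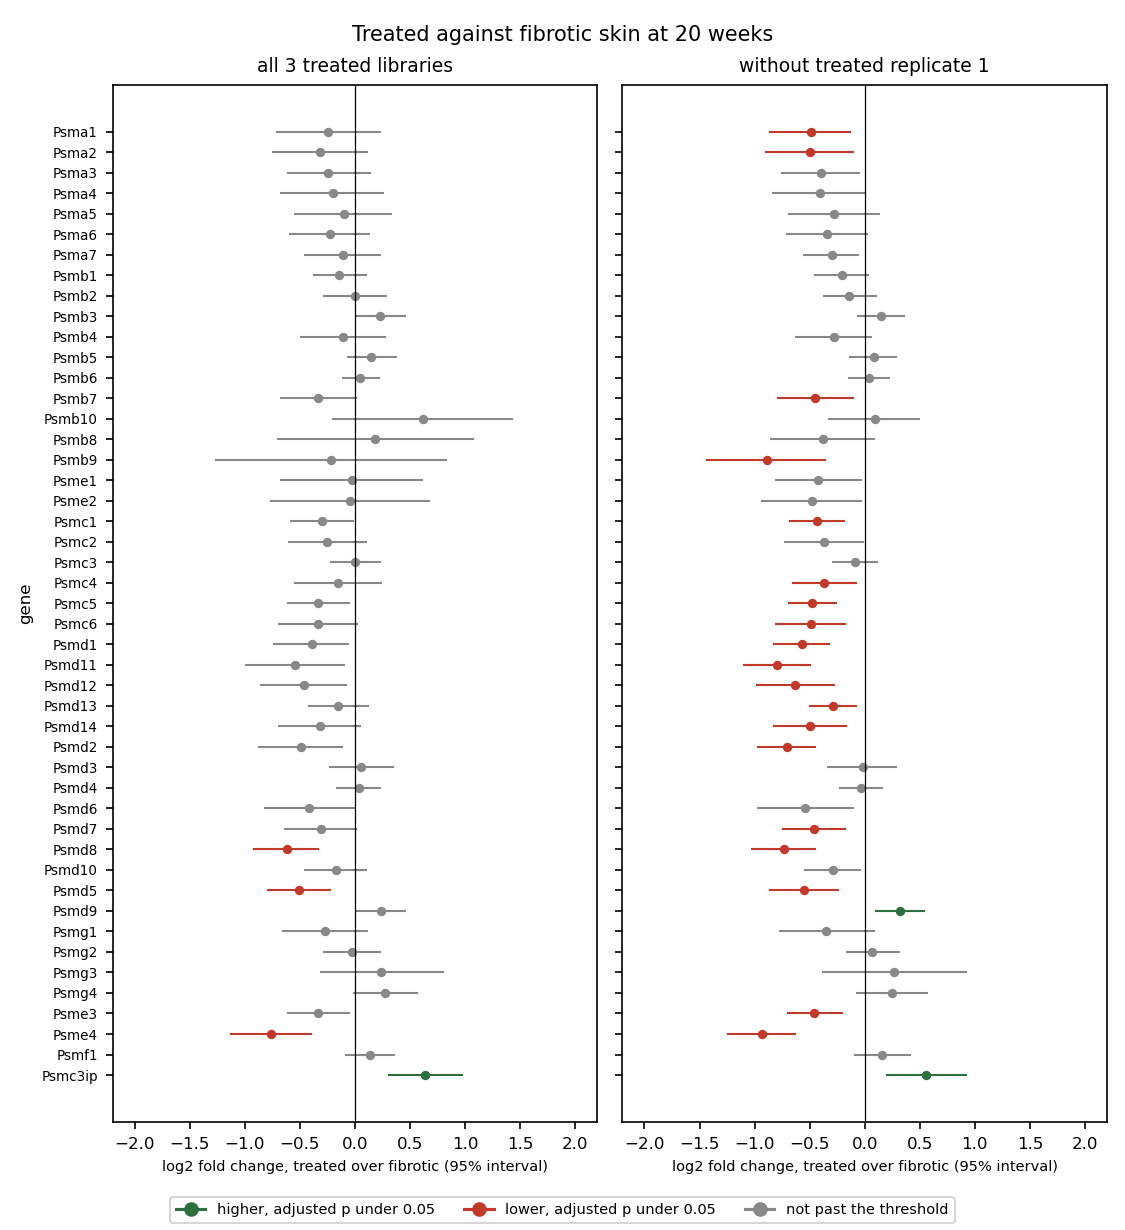
Log2 fold change of treated over fibrotic skin at 20 weeks with its 95% interval for the 47 tested members, from all 3 treated libraries (left) and without treated replicate 1 (right), with called members in colour. On the left 3 members are called lower and 1 higher, and on the right 19 lower and 2 higher.

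Treated skin had 10 members called higher than normal skin and 0 lower, beside 7.57% and 13.2% of all tested genes. Of these, 8 were standard subunits, 4 of them in the beta ring (Psmb2, Psmb3, Psmb5 and Psmb6), with Psmc3, Psmc5, Psmd3 and Psmd4, and the others were Psmb10 and Psmg3. Psmb3 rose by 0.67 ± 0.10 and Psmd3 by 0.63 ± 0.13 (limma, adjusted p = 0.00382 and 0.0115). The chaperone Psmg3 had 15, 14.7 and 17.3 FPKM in treated skin, against 12.5, 7.02 and 6.03 FPKM in normal skin (0.87 ± 0.25, adjusted p = 0.0355). Its call held in 1 of 6 fits with a library left out and was lost after the rescaling. Without treated replicate 1, Psmb2, Psmc3, Psmc5 and Psmg3 were no longer called. The 10 calls became 6 without treated replicate 1, 6 without treated replicate 2, 5 without normal replicate 2 and 5 without normal replicate 3, beside 8.55%, 7.05%, 4.98% and 2.08% of all tested genes called higher. In the fit of the 6 libraries alone 1 was left, beside 0.24%. Comparisons of treated with fibrotic and of fibrotic with normal skin share the fibrotic libraries, and those with normal skin share the normal ones, so their values are not independent.

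Other genes of the pathway were taken from a list of 30, of which 27 were tested. At 6 weeks 8 were called higher and 2 lower than in normal skin, at 20 weeks 8 higher and 0 lower, and 7 lower in treated against fibrotic skin. The shares of all tested genes called higher and lower were 17.6% and 21.7% at 6 weeks and 15.3% and 18.2% at 20 weeks, and 10.9% were lower in treated against fibrotic skin. Those 7 became 16 without treated replicate 1, beside 20.2% of all tested genes, and 0 in the fit of the 6 libraries alone, beside 0.0145%. Adrm1, the ubiquitin receptor at the tip of the cap, was the one called in treated over normal skin. It had 71.9, 50.6 and 60.4 FPKM in treated skin, 66.6, 65.6 and 60.2 FPKM at 20 weeks, 65.1, 69.8 and 65.5 FPKM at 6 weeks and 40.6, 43.9 and 43 FPKM in normal skin. The groups do not overlap with normal skin, and the log2 fold change was 0.58 ± 0.12 at 20 weeks and 0.64 ± 0.12 at 6 weeks (limma, adjusted p = 0.00516 and 0.00267). The others called higher at both times were Pomp, the core maturation factor (0.64 and 0.69), Uchl5, a cap deubiquitinase (0.56 and 0.69), the shuttle receptor Rad23b (0.68 and 0.75), the ubiquitin-activating enzyme Uba1 (0.84 and 0.64) and Nfe2l2.

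Among the transcription factors in the list, Nfe2l2, which drives antioxidant response genes, had 46.2, 39.5 and 30 FPKM in treated skin, 77.2, 60.1 and 60.4 FPKM at 20 weeks, 91.2, 99.1 and 64 FPKM at 6 weeks and 36.1, 40 and 48.3 FPKM in normal skin. Both fibrotic groups lie above every normal library. The gene rose by 0.66 ± 0.20 at 20 weeks and was also called higher at 6 weeks over normal skin (limma, adjusted p = 0.0318 and 0.00447), and it fell by 0.77 ± 0.20 in treated against fibrotic skin (adjusted p = 0.0334). Nfe2l1, the factor that restores proteasome genes when the particle is inhibited, had 107, 77.2 and 85.8 FPKM in treated skin, 98.3, 98.2 and 108 FPKM at 20 weeks, 65.4, 60.1 and 78.1 FPKM at 6 weeks and 95, 88.2 and 99.1 FPKM in normal skin. Its 6-week libraries lie below the normal ones with a log2 fold change of -0.47 ± 0.13 (limma, adjusted p = 0.0193), as do those of Ddi2, the protease that activates its protein, with -0.55 ± 0.15 (adjusted p = 0.0145). After the rescaling the list of 27 had 6 higher and 7 lower at 6 weeks, beside 9.41% and 43.1% of all tested genes, with Nfe2l1 still lower. At 20 weeks it had 4 higher and 3 lower, beside 8.49% and 36.3%. In treated against fibrotic skin it had 1 higher and 1 lower, beside 12.3% and 5.61%.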

How the data were processed

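RNA of 12 skin samples was sequenced, and the authors deposited 1 table of FPKM values with a column for each library and 23359 genes. Per the submitters' processing notes the genome build was mm10 and the tools included Cufflinks 2.2.1, TopHat2 2.0.13 and also R 3.1.1, Bowtie2 2.2.3, cutadapt 1.7.1 and FastQC 0.11.2. The sources used here give neither their roles nor the annotation, so depth is unknown and no counting error can be given. FPKM shares within a library fall when a few genes take more of it.

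Values were tested as log2(FPKM + 1), with a pseudocount of 1, in limma 3.58.1 under R 4.3.3, with an intensity trend, a mean per group and 2-sided p-values with Benjamini-Hochberg adjustment over all tested genes, for 5 comparisons. The scripts were tested on simulated data. Genes had to reach 1 FPKM in 3 or more libraries. The rule for named genes took the immunoproteasome genes, Psmb5, Psmb6 and Psmb7, and per comparison the 8 other called members with the smallest adjusted p in each direction; further members are named to complete counts and roles and were chosen after their values were seen. The members and lists were chosen with earlier results of these data known. Positions are from GENCODE on GRCm38, promoters from RefSeq on GRCm38.p6.

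Replicate numbers were checked for pairing. Same-numbered libraries deviated together for each pair only in 6-week fibrotic against normal skin (correlations 0.159, 0.227 and 0.108), a hint from the data and not from the labels. The hint is weak, as 6-week replicate 3 correlated more with a normal library of another number (0.191). The other comparisons were not paired. Alternatives were another pseudocount of 0.1, no filter, a filter at a mean of 5 FPKM, 2 scalings, a fit of the 6 libraries compared, the block, array weights and leaving out each library. Leaving out treated replicate 1 in all comparisons, and the block within the 6-library fit, were added after seeing the data.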

Additional observations from a re-analysis of the deposited data

Results flagged for a closer look

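Psmc3ip went in opposite directions at the 2 times relative to normal skin. Its libraries deviated from the normal mean by -0.11, -0.08 and -0.55 on the log2 scale at 20 weeks and by 0.21, 0.42 and 0.55 at 6 weeks. The difference between 20 and 6 weeks was -0.64 ± 0.15 (limma, adjusted p = 0.0927) and did not pass the threshold with all libraries.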

How the results depend on the processing

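Of 68 results for named genes, 35 were called, 0 of these reversed under an alternative and 23 lost the call under at least 1. The count of members called changed with rescaling, array weights and single libraries, and in the comparisons of 20 with 6 weeks and of treated skin with the 6-library fit. At 6 weeks over normal skin it was 9 (8 higher, 1 lower) after rescaling in place of 26, and 13 to 32 with a library left out. Of all tested genes 9.41% were called higher and 43.1% lower after rescaling. With a library left out, 11% to 21.4% were called higher and 14.5% to 26.2% lower. At 20 weeks over normal skin it was 6 (4 higher, 2 lower) after rescaling and 30 with array weights in place of 19, and 7 to 25 with a library left out. Of all tested genes 8.49% were called higher and 36.3% lower after rescaling, and 22% and 26.5% with array weights. With a library left out, 10.1% to 19.5% were called higher and 11.9% to 22.7% lower. At 20 over 6 weeks it was 3 in the 6-library fit and 7 with array weights in place of 0, and 0 to 3 with a library left out. Of all tested genes 2.09% were called higher and 1.39% lower in the 6-library fit, and 10.9% and 9.19% with array weights. With a library left out, up to 3.01% were called higher and up to 0.988% lower. In treated over fibrotic skin it was 9 after rescaling, 0 in the 6-library fit and 26 with array weights in place of 4, and 0 to 21 with a library left out. Of all tested genes 12.3% were called higher and 5.61% lower after rescaling. These shares were 0.00727% and 0.0145% in the 6-library fit and 29.9% and 27.1% with array weights. With a library left out, 0.0145% to 17.7% were called higher and 0.00727% to 20.2% lower. In treated over normal skin it was 1 in the 6-library fit and 20 with array weights in place of 10, and 5 to 11 with a library left out. Of all tested genes 0.24% were called higher in the 6-library fit, 17.8% with array weights and 2.08% to 8.55% with a library left out. The estimation of array weights stopped before full convergence. It gave treated replicate 2 a weight of 12.82, against 0.1619 and 0.3714 for treated replicates 1 and 3. Treated results with array weights therefore rest mostly on treated replicate 2. The cause of these shifts was not tested.

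With the replicate block the counts were 23 at 6 weeks over normal skin, 19 at 20 weeks over normal skin, 0 at 20 over 6 weeks, 4 in treated over fibrotic skin and 7 in treated over normal skin. In that order, 16.1%, 13.9%, 0.00727%, 2.36% and 6.03% of all tested genes were called higher. The shares called lower were 20.3%, 16.8%, 0.0291%, 7.56% and 11%. In the 6-library fit of 6-week and normal skin, the block gave 30, beside 19.6% of all tested genes higher and 23.4% lower. With a library left out, the log2 ratio of Psmb8 to Psmb5 ran from -0.12 to 0.15 at 20 weeks over normal skin, from -0.46 to 0.41 in treated over fibrotic and from -0.44 to 0.44 in treated over normal skin. That of Psmb9 to Psmb6 ran from -0.94 to 0.17 in treated over fibrotic and from -0.25 to 0.86 in treated over normal skin, and that of Psmb10 to Psmb7 from -0.33 to 0.22 at 6 weeks over normal skin.

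The reversals were of results not called with all libraries. After rescaling, the log2 fold change of Psme1 was -0.11 at 6 weeks and -0.11 at 20 weeks over normal skin, 0.00 at 20 over 6 weeks and 0.22 in treated over fibrotic skin, that of Psme2 in treated over fibrotic skin 0.21, of Psmb9 0.04, and of Psmb7 at 20 weeks over normal skin -0.01. With array weights, Psmb8 and Psmb10 had -0.14 and -0.03 in treated over fibrotic skin, and Psme1 and Psmb7 -0.03 and 0.02 in treated over normal skin. After scaling by the median of ratios, Psmb8 had 0.00 at 6 weeks over normal skin and Psmb7 0.02 in treated over normal skin. With a library left out, values ran from -0.22 to 0.05 (Psmb8) and -0.31 to 0.07 (Psmb9) at 6 weeks over normal skin, -0.20 to 0.05 (Psme1), -0.07 to 0.22 (Psme2) and -0.02 to 0.04 (Psmb6) at 20 over 6 weeks, -0.38 to 0.61 (Psmb8), -0.89 to 0.24 (Psmb9), -0.42 to 0.25 (Psme1) and -0.48 to 0.31 (Psme2) in treated over fibrotic skin, and -0.24 to 0.43 (Psme1) and -0.17 to 0.08 (Psmb7) in treated over normal skin.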
